A study of Sus scrofa with 21 samples.

Results

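In contrast (i), testis RNA was compared between 4 Landrace boars with high and 4 with low sperm hyperactivity, scored when the ejaculate was collected (day 0). The 8 boars were chosen by their deposited labels alone, which place L5, L6, L7 and L8 in the high hyperactivity group and L1, L2, L3 and L4 in the low hyperactivity group, out of 21 boars in the series. All 8 were purebred Norwegian Landrace boars kept for artificial insemination, untreated, and the tissue was frozen testis collected after slaughter, with 1 library per boar. Hyperactivity had been scored on ejaculated sperm by computer-assisted semen analysis, so the groups were set by a trait of the sperm and not of the testis. Ages at slaughter were not given for single boars. L2 and L7 also belong to the low and high groups of a storage contrast, and the other 5 Landrace boars belong to that contrast only. The libraries held 53644587 to 77217140 counts on genes in the low group and 64052547 to 97059970 in the high group.

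Hyperactivated sperm beat with large, asymmetric strokes of the flagellum, which help them to leave the oviduct wall and to enter the coat of the oocyte. The flagellum, acrosome and energy supply of a sperm cell are built in the testis, where spermatogonia divide, spermatocytes go through meiosis, and spermatids elongate and pack their chromatin before they are released. Sertoli cells nurse these germ cells inside the tubule, peritubular muscle-like cells wrap it, and Leydig cells between the tubules make steroid hormones. Whole testis tissue mixes all of these, so fewer cells of a type and less RNA per cell cannot be told apart here.

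Of 25880 genes, 12979 reached at least 1 CPM, the counts of a gene scaled to a fixed library size, in at least 4 of the 8 libraries and were tested with edgeR's quasi-likelihood test. At an adjusted p under 0.05, 2682 genes (20.7% of those tested) were differentially expressed, of which 626 (4.82%) were higher and 2056 (15.8%) lower in the high hyperactivity group. The direction of every difference given here rests on the deposited group labels, which no measurement in the count files checks. The text of the study describes most of its called genes in this contrast as up-regulated in the high group, the opposite balance. Its printed mean counts of PRM1 and MAN2B2 are lower in the high group, the direction found here. The share of called genes that were lower was 76.7%, against 90.7% under upper quartile normalization and 62.8% with DESeq2. The lower genes moved further than the higher ones. The median fold was 2.07 (low over high) among called lower genes and 1.42 (high over low) among called higher genes. A log2 fold change (high minus low throughout) under -1 was reached by 1176 of the called lower genes, and one over 1 by 8 of the called higher genes. Over all genes tested the median log2 fold change was 0.03, with the 5th percentile at -1.26 and the 95th at 0.52. In 3782 genes (29.1%) the levels of the groups did not overlap.

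The calls depended on single boars. L8 had the lowest level of the high group in 80.2% of the called lower genes and the highest level in 80.4% of the called higher genes. L3 was at the opposite end, with the highest level of the low group in 63.6% of the called lower genes and the lowest in 67.3% of the called higher genes. With each boar left out in turn, 1 gene was called without L3, 1 without L6, 966 without L1, 1228 without L8 and 1481 without L4, and the other 3 fits called 1836 to 3764 genes. All 2566 of the called genes that were still tested without L3, and all 2681 without L6, kept their direction. The gene called without L3 was RBCK1, which encodes a ubiquitin ligase subunit, and the gene called without L6 was CACNB2, which encodes a calcium channel subunit, both named after their values were seen. Unless said otherwise, the calls named below were lost without L3 and without L6, and log2 fold changes are given with their standard errors (SE). ELN, GAA, SCRIB and IRF7 reached 1 CPM in every low boar and no high boar and were not tested without L3. RAB39A reached it in every high boar and no low boar and was not tested without L6. Each of these genes thus entered the test through the group in which it was higher. The values of single genes are CPM scaled by TMM, listed for L1 to L4 and then for L5 to L8, and adjusted p-values are those of edgeR's quasi-likelihood test.

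The defining markers of testis were present in every library. The spermatid genes TNP1 and PRM1, which encode proteins that pack sperm DNA, reached 4305 to 8039 CPM and 786 to 2270 CPM over the 8 boars, the synaptonemal complex gene SYCP3 283 to 719.7 CPM, and CYP17A1, a steroid enzyme of Leydig cells, 263 to 2551 CPM. The spermatogonial genes ZBTB16 and UCHL1 (8.74 to 14.04 and 1.71 to 3.69 CPM), the Sertoli genes SOX9 and FSHR (28.6 to 45.5 and 18.9 to 32.3 CPM), and the leukocyte genes CD163 and PTPRC (0.886 to 9.44 and 2.75 to 3.81 CPM) were detected at lower values. Of the 12 listed genes of epididymal and rete epithelium, 7 were tested and none was called in either direction, with a median log2 fold change of -0.16.

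**Figure D1:**
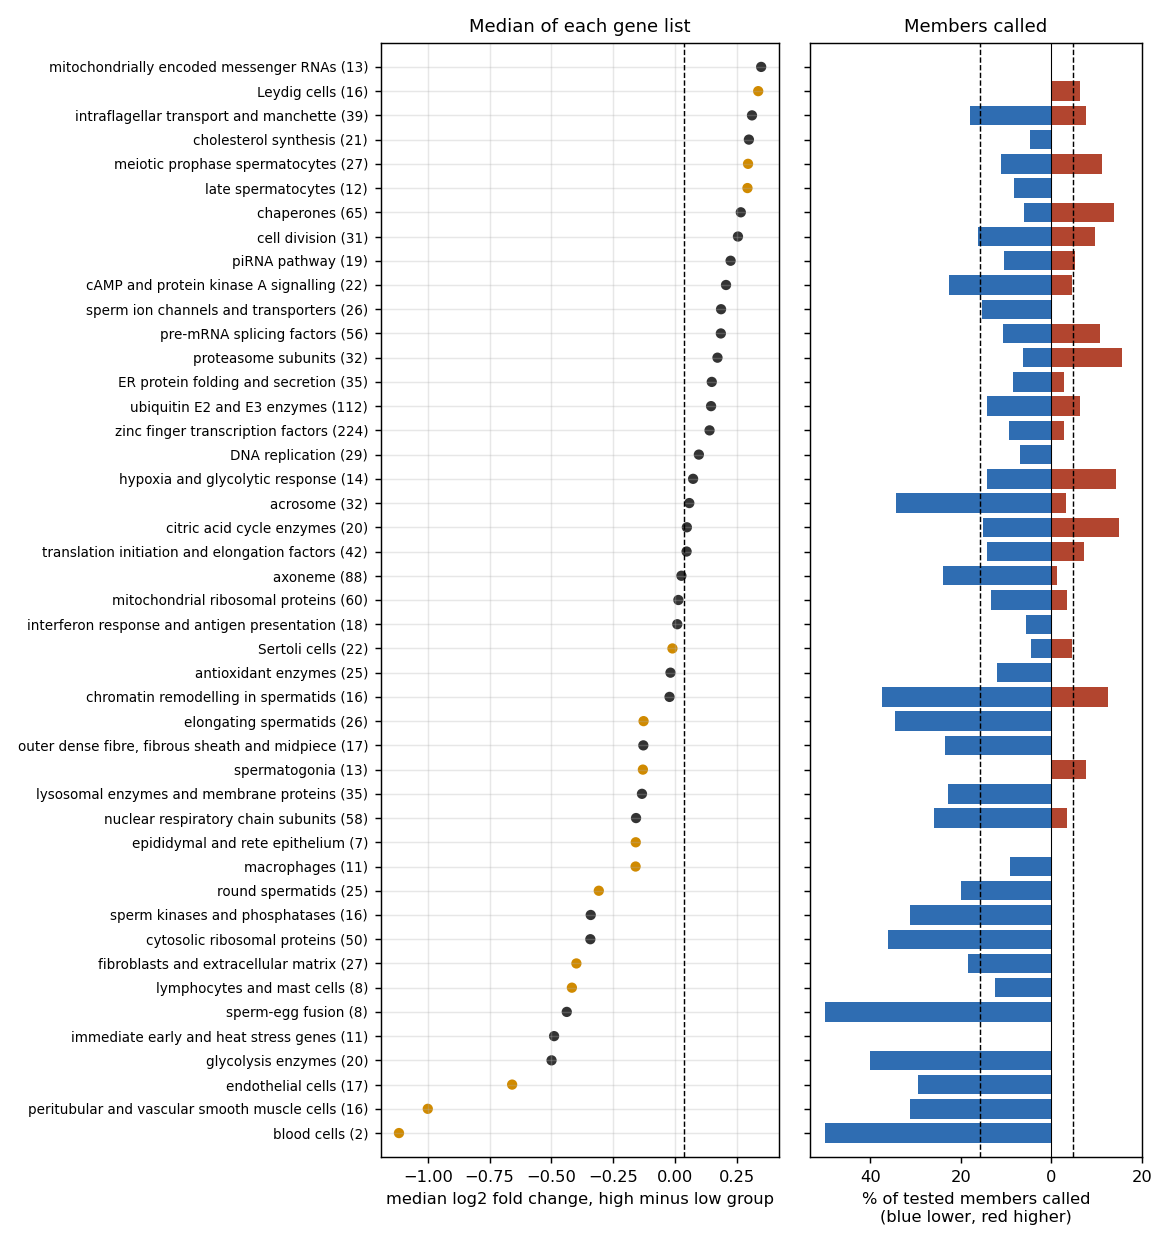
Gene lists for cell types (orange points) and functions (black points), with the number of tested members in brackets. The left panel gives the median log2 fold change of each list in the high against the low group, and the right panel the percent of members called lower (blue) or higher (red), with dashed lines at the values over all 12979 genes. Smooth muscle, endothelial and glycolysis lists sit at the low end, and no list has a median above 0.35.

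Lists of genes for 14 cell types and 31 functions were compared with these background shares. Together they held 1415 tested genes, of which 16% were called lower and 4.45% higher, close to the shares over all genes. Of the 45 lists, 24 had a median log2 fold change under that of all genes, 19 had a larger share of lower calls than all genes, and 14 had a larger share of higher calls. The plot of list medians shows that the lists spread further to the low side than to the high side.

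Among cell type lists with more than 2 tested members, the wall of the tubule and the blood vessels had the lowest medians. Of 16 tested genes of peritubular and vascular smooth muscle, 5 were lower and 0 higher, with a median log2 fold change of -1.0. MYOCD, a coactivator that turns on smooth muscle genes, was measured at 10.6, 10.8, 14.3 and 4.97 CPM in the low boars and 2.51, 1.40, 2.12 and 3.24 CPM in the high boars. Every high boar was under every low boar, and MYOCD was lower in the high group (log2 fold change -2.14 ± 0.34 SE, adjusted p = 0.0208). DES, which encodes the muscle filament desmin, was measured at 6.003, 6.29, 9.55 and 9.48 CPM in the low boars and 3.86, 2.52, 3.78 and 0.934 CPM in the high boars. The groups again did not overlap (log2 fold change -1.5 ± 0.38 SE, adjusted p = 0.0255). The myosin heavy chain gene MYH11 was also called, although L7 at 21.0 CPM lay above L4 at 18.6 CPM and L1 at 20.2 CPM (log2 fold change -1.17 ± 0.35 SE, adjusted p = 0.0392). The smooth muscle actin gene ACTA2 did not pass the test (log2 fold change -0.88 ± 0.47 SE, adjusted p = 0.167), nor did MYLK, the myosin light chain kinase gene and the highest of the list in level (log2 fold change -0.19 ± 0.17 SE, adjusted p = 0.405). Further lower members, singled out after their values were seen, were the smooth muscle genes SMTN (log2 fold change -1.40) and TPM2 (-1.23). The summed level of the list was 259 to 461 CPM in the low and 210 to 378 CPM in the high group, so the sums of the groups overlapped. The list median stayed between -1.42 and -0.78 with any 1 boar left out.

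Endothelial genes gave a similar picture, with 5 of 17 lower, 0 higher and a median of -0.66. STAB1, a scavenger receptor of sinusoidal endothelium and macrophages, was measured at 6.02, 4.62, 12.3 and 9.33 CPM in the low boars and 3.02, 3.02, 2.10 and 1.10 CPM in the high boars. No high boar reached a low boar (log2 fold change -1.81 ± 0.38 SE, adjusted p = 0.0208). CD34, a surface protein of vessel lining cells, was measured at 13.9, 15.7, 20.3 and 14.7 CPM in the low boars and 9.06, 8.39, 11.11 and 5.18 CPM in the high boars, again without overlap (log2 fold change -0.94 ± 0.23 SE, adjusted p = 0.0241). The panendothelial marker PECAM1 did not pass the test (log2 fold change -0.39 ± 0.29 SE, adjusted p = 0.314), and its levels overlapped, from 4.99 to 15.3 CPM in the high and from 10.98 to 16.7 CPM in the low group. L8 stood lowest for the list as a whole. Without L8 the list median was -0.39, and with L8 the summed level was 89.95 to 144 CPM in the high group against 138 to 209 CPM in the low group.

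Of 27 genes of fibroblasts and extracellular matrix, 5 were lower (18.5%, near the 15.8% of all genes) and 0 higher, and the median was -0.40. ELN, which encodes elastin, was measured at 1.82, 1.23, 2.77 and 1.53 CPM in the low boars and 0.234, 0.381, 0.647 and 0.177 CPM in the high boars (log2 fold change -2.34 ± 0.44 SE, adjusted p = 0.0208). ELN reached 1 CPM in no high boar, so it entered the test through the low group. LAMB2, a laminin chain of vessel and muscle basement membranes, was measured at 4.90, 5.21, 11.4 and 3.98 CPM in the low boars and 1.57, 2.37, 3.32 and 1.10 CPM in the high boars (log2 fold change -1.61 ± 0.41 SE, adjusted p = 0.0246). In both genes the highest value belonged to L3. LAMB1, the laminin chain gene with the highest level in the list, had nearly equal values, with 259, 282, 289 and 261 CPM in the low boars and 326, 195, 292 and 236 CPM in the high boars (log2 fold change -0.06 ± 0.16 SE, adjusted p = 0.799). A further member singled out after its values were seen, the fibrillar collagen gene COL1A1, was lower (log2 fold change -1.60 ± 0.47 SE, adjusted p = 0.0364). Among all groups of at least 15 genes that share the stem of their symbol, the collagens (COL, 7 of 25 lower, 0 higher, median -0.65) and the semaphorins (SEMA, 6 of 18 lower, 0 higher, median -0.72) had the lowest medians.

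**Figure D2:**
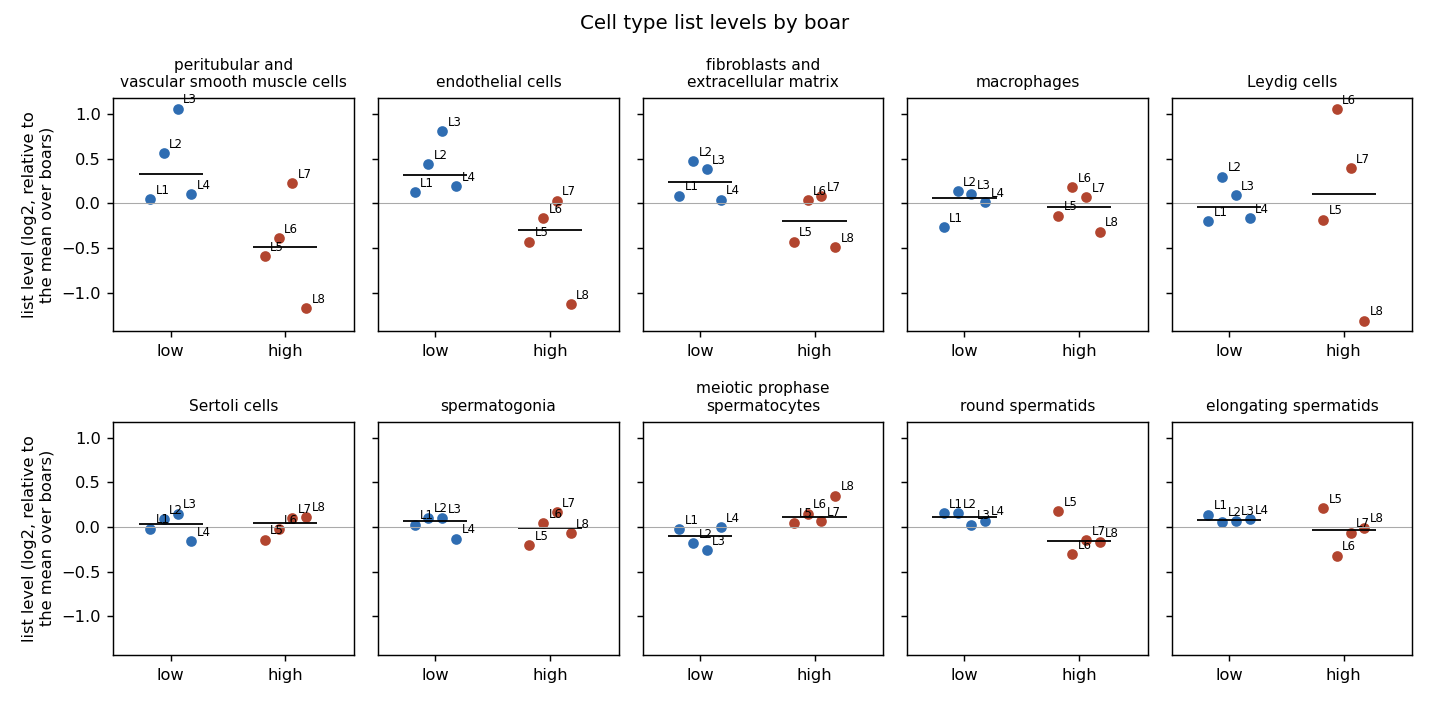
Level of each cell type list in each boar, as the median over its members of the log2 CPM relative to the mean of the 8 boars. Points are boars and lines the group medians. L8 is lowest and L3 highest for smooth muscle and endothelial genes, and the Leydig list spans -1.31 to 1.05 within the high group.

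Leukocyte lists held few calls. Among macrophage genes 1 of 11 was lower and 0 higher, with a median of -0.16. The complement gene C1QC was measured at 4.94, 5.70, 4.90 and 6.25 CPM in the low boars and 3.26, 2.53, 2.91 and 1.19 CPM in the high boars, without overlap (log2 fold change -1.14 ± 0.30 SE, adjusted p = 0.027). The macrophage receptor CD163 did not pass the test and varied within both groups, from 0.886 to 9.44 CPM in the high group (log2 fold change 0.14 ± 0.60 SE, adjusted p = 0.87). Of 8 lymphocyte and mast cell genes, CD4 alone was called, at 1.73, 4.77, 2.63 and 2.57 CPM in the low boars and 1.12, 1.47, 1.305 and 0.685 CPM in the high boars (log2 fold change -1.36 ± 0.36 SE, adjusted p = 0.0282). PTPRC, the pan-leukocyte gene CD45, was slightly higher in each high boar than in any low boar but did not pass the test (log2 fold change 0.23 ± 0.21 SE, adjusted p = 0.411). The red cell gene HBB was called lower (log2 fold change -2.53 ± 0.75 SE, adjusted p = 0.0376) with L2 at 17.8 CPM and all other boars at or under 4.81 CPM. AHSP, the only other blood gene tested, had a log2 fold change of 0.30.

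Leydig cell genes separated the high boars from each other more than the groups. Of 16 tested genes 1 was higher and 0 lower, and the median of 0.34 became -0.25 without L6. STAR, which carries cholesterol into mitochondria for steroid synthesis, was measured at 231, 546, 148 and 329 CPM in the low boars and 341, 1264, 573 and 123 CPM in the high boars. L6 was the highest and L8 the lowest of the 8 boars, both in the high group (log2 fold change 0.88 ± 0.56 SE, adjusted p = 0.247). CYP17A1 gave the same 2 extremes, at 1238, 1252, 1442 and 1531 CPM in the low boars and 1139, 2551, 1631 and 263 CPM in the high boars (log2 fold change 0.03 ± 0.46 SE, adjusted p = 0.964). FDX1, the electron donor of steroid enzymes, was called higher, at 69.3, 83.4, 59.5 and 67.6 CPM in the low boars and 89.5, 166, 100.1 and 87.1 CPM in the high boars, with all high boars above all low boars (log2 fold change 0.66 ± 0.21 SE, adjusted p = 0.0431). FDXR, the reductase that feeds it, had the opposite sign, with values of 2.38, 3.58, 4.81 and 3.73 CPM in the low boars and 1.37, 1.75, 2.29 and 0.39 CPM in the high boars, but did not pass the test (log2 fold change -1.32 ± 0.44 SE, adjusted p = 0.053). Cholesterol synthesis genes had 1 lower and 0 higher of 21 and a median of 0.30. The lower one was SREBF2, a regulator of the pathway (log2 fold change -0.66 ± 0.20 SE, adjusted p = 0.042).

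Sertoli cell genes were nearly balanced, with 1 of 22 higher, 1 lower and a median of -0.01. The water channel gene AQP8 was measured at 14.1, 11.98, 16.1 and 13.9 CPM in the low boars and 8.30, 7.87, 11.5 and 7.30 CPM in the high boars (log2 fold change -0.68 ± 0.19 SE, adjusted p = 0.0329), and the defensin gene DEFB119 at 67.1, 60.8, 49.7 and 46.1 CPM in the low boars and 81.9, 67.2, 73.8 and 128 CPM in the high boars (log2 fold change 0.65 ± 0.21 SE, adjusted p = 0.0455). Neither overlapped between groups. SOX9 and FSHR did not pass the test (log2 fold change 0.31 ± 0.16 SE, adjusted p = 0.155 and log2 fold change 0.17 ± 0.20 SE, adjusted p = 0.521, respectively).

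Early germ cell genes held few calls as well. Among 13 spermatogonial genes 1 was higher and 0 lower, with a median of -0.13. The called gene was ID4, a marker of undifferentiated spermatogonia, at 13.7, 10.3, 9.88 and 9.94 CPM in the low boars and 13.7, 15.6, 15.6 and 22.4 CPM in the high boars. L1 was just above L5, so the groups touched (log2 fold change 0.62 ± 0.20 SE, adjusted p = 0.0467). ZBTB16 and UCHL1 did not pass the test (log2 fold change -0.07 ± 0.19 SE, adjusted p = 0.792 and log2 fold change -0.15 ± 0.31 SE, adjusted p = 0.723).

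Meiotic genes were called in both directions, with 3 of 27 higher, 3 lower and a median of 0.30, and 20 of the 27 had a positive log2 fold change. DESeq2 called 10 higher and 4 lower, and upper quartile normalization 1 higher and 4 lower. DMC1, a recombinase of meiotic strand exchange, was measured at 65.5, 53.7, 46.5 and 53.6 CPM in the low boars and 70.3, 75.6, 77.8 and 87.4 CPM in the high boars, higher in every high boar (log2 fold change 0.50 ± 0.14 SE, adjusted p = 0.0308). REC8, a cohesin subunit that holds sister chromatids together in meiosis, was measured at 46.7, 54.1, 67.0 and 40.4 CPM in the low boars and 38.2, 18.2, 28.4 and 20.6 CPM in the high boars, lower in every high boar (log2 fold change -0.98 ± 0.24 SE, adjusted p = 0.0225). SYCP3 had no overlap but did not pass the test (log2 fold change 0.54 ± 0.19 SE, adjusted p = 0.0573). SPO11, the enzyme that makes meiotic breaks, was singled out after its values were seen because boars differed within both groups, with 5.28, 22.4, 5.36 and 6.06 CPM in the low boars and 5.78, 50.2, 27.4 and 6.55 CPM in the high boars (log2 fold change 1.197 ± 0.68 SE, adjusted p = 0.192). L2, L6 and L7 stood above the other 5 boars, which lay between 5.28 and 6.55 CPM. Of 12 late spermatocyte genes, 1 was lower and 0 higher, with a median of 0.29. The lower one was RFX2, a transcription factor of spermatid cilia genes, at 75.4, 78.4, 85.3 and 80.3 CPM in the low boars and 49.96, 29.5, 46.8 and 25.3 CPM in the high boars (log2 fold change -1.08 ± 0.21 SE, adjusted p = 0.0208).

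In the lists of round and elongating spermatids the calls were lower, while DESeq2 also called 2 and 1 of their members higher. Among round spermatid genes 5 of 25 were lower (20%, against 15.8% of all genes), 0 higher, and the median was -0.31. The actin-like genes ACTL7B and ACTRT2, which belong to the cytoskeleton of the sperm head, led the list. ACTL7B was measured at 98.2, 77.4, 103 and 81.6 CPM in the low boars and 44.4, 15.9, 47.4 and 19.4 CPM in the high boars (log2 fold change -1.503 ± 0.32 SE, adjusted p = 0.0208) and ACTRT2 at 86.1, 71.8, 86.1 and 83.1 CPM in the low boars and 47.0, 20.6, 45.6 and 17.6 CPM in the high boars (log2 fold change -1.32 ± 0.29 SE, adjusted p = 0.0209). In both genes L6 and L8 were the lowest boars. ACRV1, an acrosomal marker of round spermatids, had a positive log2 fold change that did not pass the test (log2 fold change 0.46 ± 0.16 SE, adjusted p = 0.0579).

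Elongating spermatid genes had 9 of 26 lower (34.6%), 0 higher and a median of -0.13, with the other 17 members not called. TSSK6, a kinase needed for chromatin packing in spermatids, was measured at 8.42, 9.27, 10.8 and 13.03 CPM in the low boars and 4.66, 2.56, 5.46 and 2.91 CPM in the high boars (log2 fold change -1.41 ± 0.27 SE, adjusted p = 0.0208). SPATA3 was measured at 31.5, 26.4, 32.2 and 29.9 CPM in the low boars and 16.3, 11.9, 20.2 and 10.8 CPM in the high boars (log2 fold change -1.02 ± 0.20 SE, adjusted p = 0.0208). The protamine gene PRM1 was measured at 2270, 1421, 1471 and 1733 CPM in the low boars and 1203, 786, 1327 and 921 CPM in the high boars, lower in every high boar (log2 fold change -0.70 ± 0.20 SE, adjusted p = 0.0338). Its neighbours in the protamine cluster were singled out after their values were seen. TNP2 was also lower, at 191, 163, 197 and 289 CPM in the low boars and 152, 95.2, 151 and 109 CPM in the high boars (log2 fold change -0.73 ± 0.20 SE, adjusted p = 0.0324), while PRM2 had overlapping values of 34.6, 22.4, 32.3 and 25.4 CPM in the low boars and 26.1, 27.9, 22.1 and 23.3 CPM in the high boars (log2 fold change -0.21 ± 0.17 SE, adjusted p = 0.366). TNP1, the transition protein gene on another chromosome with the highest level in the list, overlapped and did not pass the test (log2 fold change 0.21 ± 0.18 SE, adjusted p = 0.389). In the wider list of chromatin remodelling in spermatids, 6 of 16 were lower, 2 higher and the median was -0.02. The lower ones included the remodelling helicase CHD5 (log2 fold change -0.86 ± 0.19 SE, adjusted p = 0.0209) and UHRF1, a reader of DNA methylation (log2 fold change -0.77 ± 0.19 SE, adjusted p = 0.0225).

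Among the genes that build the flagellum, the axoneme list held 88 tested genes, with 21 lower (23.9%), 1 higher and a median of 0.03. DESeq2 called 22 lower and 10 higher. DRC3, a part of the nexin-dynein regulatory complex that coordinates the beat, was measured at 9.43, 10.2, 15.5 and 12.6 CPM in the low boars and 5.98, 3.54, 3.43 and 3.18 CPM in the high boars (log2 fold change -1.57 ± 0.26 SE, adjusted p = 0.0208). RSPH6A, a radial spoke head protein of sperm, was measured at 24.5, 20.3, 24.5 and 33.5 CPM in the low boars and 12.2, 5.93, 11.9 and 10.1 CPM in the high boars (log2 fold change -1.36 ± 0.24 SE, adjusted p = 0.0208). CFAP97, the highest of the list in level, did not pass the test and had the opposite sign (log2 fold change 0.44 ± 0.17 SE, adjusted p = 0.075). Further lower members, singled out after their values were seen, were the dynein heavy chain genes DNAH17 (-1.18), DNAH2 (-0.93) and DNAH1 (-0.76) and the tektin gene TEKT5 (-0.75). The 1 higher member was DNAI3 (0.52), a dynein-associated protein.

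The list of outer dense fibre, fibrous sheath and midpiece had 4 of 17 lower, 0 higher and a median of -0.13. ODF2, a main protein of the outer dense fibres, was among the most abundant called genes, at 2741, 2604, 2624 and 2796 CPM in the low boars and 2256, 1390, 2026 and 1169 CPM in the high boars (log2 fold change -0.65 ± 0.20 SE, adjusted p = 0.039). SEPTIN12, which forms the ring at the end of the midpiece, was measured at 81.2, 58.5, 74.9 and 87.2 CPM in the low boars and 43.9, 23.1, 52.2 and 21.1 CPM in the high boars (log2 fold change -1.11 ± 0.27 SE, adjusted p = 0.0233). In both genes the groups did not overlap and L6 and L8 were lowest. AKAP4, the main scaffold of the fibrous sheath, did not pass the test (log2 fold change 0.31 ± 0.18 SE, adjusted p = 0.199).

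Intraflagellar transport and manchette genes, which carry cargo along the growing tail, were called in both directions, with a median of 0.31. Of 39, 7 were lower (17.9%, against 15.8% of all genes) and 3 higher (7.69%, against 4.82%). DESeq2 called 9 lower and 11 higher. IFT140 was measured at 15.2, 10.8, 16.1 and 11.4 CPM in the low boars and 7.72, 5.53, 8.48 and 4.68 CPM in the high boars (log2 fold change -1.02 ± 0.23 SE, adjusted p = 0.0212) and BBS1 at 34.4, 26.3, 36.0 and 38.3 CPM in the low boars and 21.7, 13.6, 20.9 and 8.05 CPM in the high boars (log2 fold change -1.07 ± 0.27 SE, adjusted p = 0.0255), both lower. Further members singled out after their values were seen, IFT81 (0.61), BBS2 (0.60) and the kinesin gene KIF3A (0.42), were higher. The IFT-A gene IFT140 and the IFT-B gene IFT81 had opposite calls within the same transport system, and so did the BBSome genes BBS1 and BBS2.

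Acrosome genes had 11 of 32 lower (34.4%), 1 higher and a median of 0.06. ACR, which encodes the acrosomal protease acrosin, was measured at 222, 195, 221 and 199.8 CPM in the low boars and 129, 75.03, 119.9 and 80.6 CPM in the high boars (log2 fold change -1.05 ± 0.18 SE, adjusted p = 0.0208). ZAN, a zona pellucida binding protein, was measured at 187, 192, 258 and 174 CPM in the low boars and 148, 90.8, 98.8 and 77.6 CPM in the high boars (log2 fold change -0.97 ± 0.20 SE, adjusted p = 0.0208). In both genes each high boar lay under each low boar. CLGN, a chaperone of sperm surface proteins and the highest of the list in level, had higher values in every high boar but did not pass the test (log2 fold change 0.36 ± 0.16 SE, adjusted p = 0.107). Of 8 tested sperm-egg fusion genes 4 were lower and 0 higher, with a median of -0.44. DCST1, needed for fusion, was measured at 15.1, 14.01, 15.8 and 13.2 CPM in the low boars and 9.62, 6.01, 7.97 and 6.22 CPM in the high boars (log2 fold change -0.96 ± 0.20 SE, adjusted p = 0.0208), and IZUMO4 at 319.5, 292, 318 and 302 CPM in the low boars and 262, 157, 199 and 142 CPM in the high boars (log2 fold change -0.70 ± 0.18 SE, adjusted p = 0.0249). CRISP2, the gene of that list with the most counts, did not pass the test (log2 fold change 0.45 ± 0.19 SE, adjusted p = 0.0967).

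Ion channel and transporter genes, which act directly on hyperactivation, were called lower about as often as all genes. Among sperm ion channels and transporters 4 of 26 were lower (15.4%, against 15.8% of all genes), 0 higher, and the median was 0.19. Subunits of CatSper, the calcium channel that hyperactivation needs, were among the lower genes. CATSPER1, the pore subunit, was measured at 73.1, 72.2, 107 and 59.5 CPM in the low boars and 53.5, 32.6, 36.6 and 29.5 CPM in the high boars (log2 fold change -1.04 ± 0.22 SE, adjusted p = 0.0208), and CATSPERG, an auxiliary subunit, at 303, 275, 348 and 299 CPM in the low boars and 262, 166, 198 and 147 CPM in the high boars (log2 fold change -0.66 ± 0.17 SE, adjusted p = 0.0267). With the trend of level on local gene density removed, as described at the end, neither was called, and their log2 fold changes were -0.30 for CATSPER1 and -0.10 for CATSPERG. The bicarbonate and chloride transporter gene SLC26A8 did not pass the test (log2 fold change 0.28 ± 0.13 SE, adjusted p = 0.13). SLC26A3, another exchanger of chloride and bicarbonate, was singled out after its values were seen. It was measured at 7.55, 0.0751, 0.115 and 0.0168 CPM in the low boars and 8.76, 6.35, 11.06 and 11.2 CPM in the high boars. The 4 high boars and L1 lay between 6.35 and 11.2 CPM and the other 3 low boars at or under 0.115 CPM, and the gene did not pass the test (log2 fold change 2.29 ± 1.2 SE, adjusted p = 0.161).

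In cAMP and protein kinase A signalling, which starts capacitation, 5 of 22 were lower, 1 higher and the median was 0.21. PDE4A, a phosphodiesterase that breaks down cAMP, was measured at 160.5, 148, 168 and 149.5 CPM in the low boars and 116, 68.6, 91.9 and 65.5 CPM in the high boars (log2 fold change -0.88 ± 0.18 SE, adjusted p = 0.0208). AKAP1, which anchors the kinase at mitochondria, was measured at 208, 205, 254 and 241 CPM in the low boars and 145, 77.6, 135 and 68.0 CPM in the high boars (log2 fold change -1.09 ± 0.23 SE, adjusted p = 0.0208). Sperm kinases and phosphatases had 5 of 16 lower, 0 higher and a median of -0.34. PHKG2, the testis and liver subunit of phosphorylase kinase, was measured at 214, 207, 215 and 199 CPM in the low boars and 161, 111, 141 and 114 CPM in the high boars (log2 fold change -0.67 ± 0.14 SE, adjusted p = 0.0208). The phosphatase gene PPP1CC, which holds back sperm motility in its testis form, was higher in every high boar and missed the threshold (log2 fold change 0.51 ± 0.17 SE, adjusted p = 0.0514).

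The energy lists had different shares of lower calls, which were not tested against each other. Glycolysis had the lowest median of the metabolic lists, with 8 of 20 lower (40.0%), 0 higher and a median of -0.50. ENO1, an enolase, was measured at 116, 106, 119.7 and 119.8 CPM in the low boars and 49.0, 35.3, 61.7 and 25.1 CPM in the high boars (log2 fold change -1.43 ± 0.23 SE, adjusted p = 0.0208). ALDOA, an aldolase, was measured at 75.5, 71.3, 107 and 88.6 CPM in the low boars and 43.2, 29.3, 39.6 and 15.5 CPM in the high boars (log2 fold change -1.42 ± 0.27 SE, adjusted p = 0.0208). GAPDHS, the sperm form of glyceraldehyde-3-phosphate dehydrogenase that sits on the fibrous sheath, was measured at 195, 212, 198 and 244 CPM in the low boars and 159, 81.0, 129 and 87.6 CPM in the high boars (log2 fold change -0.90 ± 0.20 SE, adjusted p = 0.0209). The groups did not overlap in any of these 3 genes. LDHC, the testis lactate dehydrogenase, did not pass the test (log2 fold change 0.26 ± 0.22 SE, adjusted p = 0.386). The summed level of the list overlapped, at 3303 to 3857 CPM in the low and 2982 to 3636 CPM in the high group.

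Nuclear genes of the respiratory chain had 15 of 58 lower (25.9%), 2 higher and a median of -0.16. NDUFA2, a subunit of complex I, was measured at 9.48, 5.61, 6.87 and 10.2 CPM in the low boars and 2.96, 1.78, 4.24 and 2.04 CPM in the high boars (log2 fold change -1.54 ± 0.31 SE, adjusted p = 0.0208), and COX5B, a subunit of complex IV, at 47.2, 32.9, 38.9 and 43.8 CPM in the low boars and 20.4, 13.4, 27.4 and 12.7 CPM in the high boars (log2 fold change -1.14 ± 0.24 SE, adjusted p = 0.0208). Of the 13 mitochondrially encoded messenger RNAs none was called in either direction, and their median was 0.35. COX1, the most abundant of them, was measured at 7038, 6850, 6968 and 8475 CPM in the low boars and 7914, 12280, 6366 and 6945 CPM in the high boars (log2 fold change 0.19 ± 0.21 SE, adjusted p = 0.486). L6 stood out within the high group, and without L6 the median of the 13 genes was 0.04. Citric acid cycle genes had 3 of 20 lower (15%, against 15.8% of all genes), 3 higher (15%, against 4.82%) and a median of 0.05. Subunits of succinate dehydrogenase split, with SDHA lower (log2 fold change -0.97 ± 0.23 SE, adjusted p = 0.0226) and SDHC, singled out after its values were seen, higher (log2 fold change 0.60 ± 0.17 SE, adjusted p = 0.0328).

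Cytosolic ribosomal protein genes had 18 of 50 lower (36.0%), 0 higher and a median of -0.34. RPS21 was measured at 22.4, 17.1, 22.9 and 25.5 CPM in the low boars and 5.25, 4.43, 8.95 and 4.41 CPM in the high boars (log2 fold change -1.93 ± 0.25 SE, adjusted p = 0.0208), and RPS15 at 15.3, 10.8, 13.8 and 15.2 CPM in the low boars and 5.28, 4.59, 8.56 and 5.07 CPM in the high boars (log2 fold change -1.23 ± 0.23 SE, adjusted p = 0.0208). RPLP0, the highest of the list in level, was measured at 1673, 1547, 1328 and 1674 CPM in the low boars and 1273, 804, 1056 and 759 CPM in the high boars (log2 fold change -0.68 ± 0.18 SE, adjusted p = 0.0265). All 3 were lower in every high boar. Ribosomal protein genes have many processed copies in the genome, so these values are uncertain where reads could be shared with a copy. Genes of mitochondrial ribosomal proteins had 8 of 60 lower (13.3%, against 15.8% of all genes), 2 higher (3.33%, against 4.82%) and a median of 0.01. Translation factors had 6 of 42 lower (14.3%, against 15.8% of all genes) and 3 higher (7.14%, against 4.82%). The lower ones included EEF1D (log2 fold change -1.60 ± 0.28 SE, adjusted p = 0.0208) and EEF2 (log2 fold change -0.77 ± 0.19 SE, adjusted p = 0.0225), both of translation elongation.

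The chaperone and proteasome lists held more higher than lower calls. Chaperone genes had 9 of 65 higher (13.8%, against 4.82% of all genes), 4 lower and a median of 0.27. CCT8, a subunit of the chaperonin that folds actin and tubulin, was measured at 262, 219.5, 212 and 234 CPM in the low boars and 287, 334, 354 and 446 CPM in the high boars, higher in every high boar (log2 fold change 0.61 ± 0.15 SE, adjusted p = 0.0225). HSPB9, a small heat shock protein of testis, was lower, at 145, 57.6, 81.0 and 95.7 CPM in the low boars and 37.6, 12.3, 45.3 and 17.7 CPM in the high boars (log2 fold change -1.75 ± 0.39 SE, adjusted p = 0.0209). HSP90AA1, the highest of the list in level, had overlapping values (log2 fold change 0.02 ± 0.17 SE, adjusted p = 0.929). Proteasome genes had 5 of 32 higher (15.6%), 2 lower and a median of 0.17. PSMD10, an assembly factor of the proteasome cap, was measured at 9.19, 13.4, 8.89 and 8.88 CPM in the low boars and 12.1, 20.7, 20.6 and 15.7 CPM in the high boars and was higher, with L5 under L2 (log2 fold change 0.78 ± 0.22 SE, adjusted p = 0.0337). PSMD3, a cap subunit, was measured at 30.4, 32.3, 32.0 and 29.8 CPM in the low boars and 20.8, 14.5, 21.3 and 10.3 CPM in the high boars, lower in every high boar (log2 fold change -0.90 ± 0.22 SE, adjusted p = 0.0225). These higher calls depended on the scaling. Under upper quartile normalization, 4 chaperone genes were higher and 7 lower, and 0 proteasome genes were higher and 4 lower. Genes of ER protein folding and secretion had 3 of 35 lower and 1 higher, SEC63 of the translocation channel (log2 fold change 0.46 ± 0.14 SE, adjusted p = 0.0366). Ubiquitin E2 and E3 enzymes had 16 of 112 lower (14.3%, against 15.8% of all genes) and 7 higher (6.25%, against 4.82%).

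Lysosomal genes had 8 of 35 lower (22.9%), 0 higher and a median of -0.13. GAA, the lysosomal alpha-glucosidase, was measured at 1.77, 2.04, 3.11 and 1.91 CPM in the low boars and 0.568, 0.462, 0.767 and 0.225 CPM in the high boars (log2 fold change -2.13 ± 0.39 SE, adjusted p = 0.0208), and MAN2B2, a mannosidase, at 7.77, 5.47, 8.15 and 6.30 CPM in the low boars and 3.12, 1.77, 2.35 and 1.29 CPM in the high boars (log2 fold change -1.70 ± 0.29 SE, adjusted p = 0.0208).

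RNA processing genes were called in both directions. Splicing factors had 6 of 56 lower (10.7%, against 15.8% of all genes), 6 higher (10.7%, against 4.82%) and a median of 0.19. U2AF2, which binds the polypyrimidine tract, was measured at 15.2, 15.04, 20.04 and 16.1 CPM in the low boars and 8.47, 5.86, 10.7 and 5.22 CPM in the high boars (log2 fold change -1.13 ± 0.24 SE, adjusted p = 0.0208). PRPF40B was measured at 42.5, 44.4, 50.01 and 48.2 CPM in the low boars and 29.4, 22.4, 27.1 and 17.4 CPM in the high boars, lower in every high boar (log2 fold change -0.94 ± 0.17 SE, adjusted p = 0.0208). The kinases GSK3A and GSK3B, paralogues singled out after their values were seen, had log2 fold changes of -0.79, which was called, and 0.31, which was not. In the piRNA pathway, which silences transposons in germ cells, 2 of 19 were lower and 1 higher. PLD6 was lower, at 14.5, 6.82, 9.99 and 13.5 CPM in the low boars and 4.88, 1.51, 6.67 and 2.17 CPM in the high boars (log2 fold change -1.55 ± 0.42 SE, adjusted p = 0.0301), and the germ cell helicase gene DDX4 was higher, at 1364, 1320, 1025 and 1342 CPM in the low boars and 1685, 1522, 1691 and 2349 CPM in the high boars (log2 fold change 0.52 ± 0.16 SE, adjusted p = 0.045).

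Cell division genes had 5 of 31 lower (16.1%, against 15.8% of all genes), 3 higher (9.68%, against 4.82%) and a median of 0.25. ESPL1, the separase that cuts cohesin, was measured at 37.8, 44.0, 54.6 and 48.6 CPM in the low boars and 30.5, 19.1, 24.8 and 15.4 CPM in the high boars (log2 fold change -1.04 ± 0.21 SE, adjusted p = 0.0208), and INCENP, a centromere protein, at 9.48, 8.30, 8.45 and 9.40 CPM in the low boars and 5.08, 3.33, 5.61 and 2.83 CPM in the high boars (log2 fold change -1.08 ± 0.24 SE, adjusted p = 0.0209). DNA replication genes had 2 of 29 lower, MCM5 (log2 fold change -1.45 ± 0.39 SE, adjusted p = 0.0288) and POLD2 (log2 fold change -1.06 ± 0.32 SE, adjusted p = 0.0394), and 0 higher. Of 224 zinc finger genes, 21 (9.38%) were lower and 6 (2.68%) higher, against 15.8% and 4.82% of all genes, and their median was 0.14.

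In stress-related lists the calls numbered from 0 to 4. Interferon and antigen presentation genes had 1 of 18 lower, IRF7 (log2 fold change -1.65 ± 0.34 SE, adjusted p = 0.0208), and 0 higher. None of 11 immediate early and heat stress genes was called, although their median was -0.49. Antioxidant genes had 3 of 25 lower, among them the sulfhydryl oxidases QSOX1 (log2 fold change -0.95 ± 0.24 SE, adjusted p = 0.0248) and QSOX2 (log2 fold change -0.98 ± 0.30 SE, adjusted p = 0.0394), and 0 higher. Genes of the hypoxia response had 2 of 14 lower, ALDOA and PFKFB4 (log2 fold change -0.71 ± 0.19 SE, adjusted p = 0.0267), and 2 higher.

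**Figure D3:**
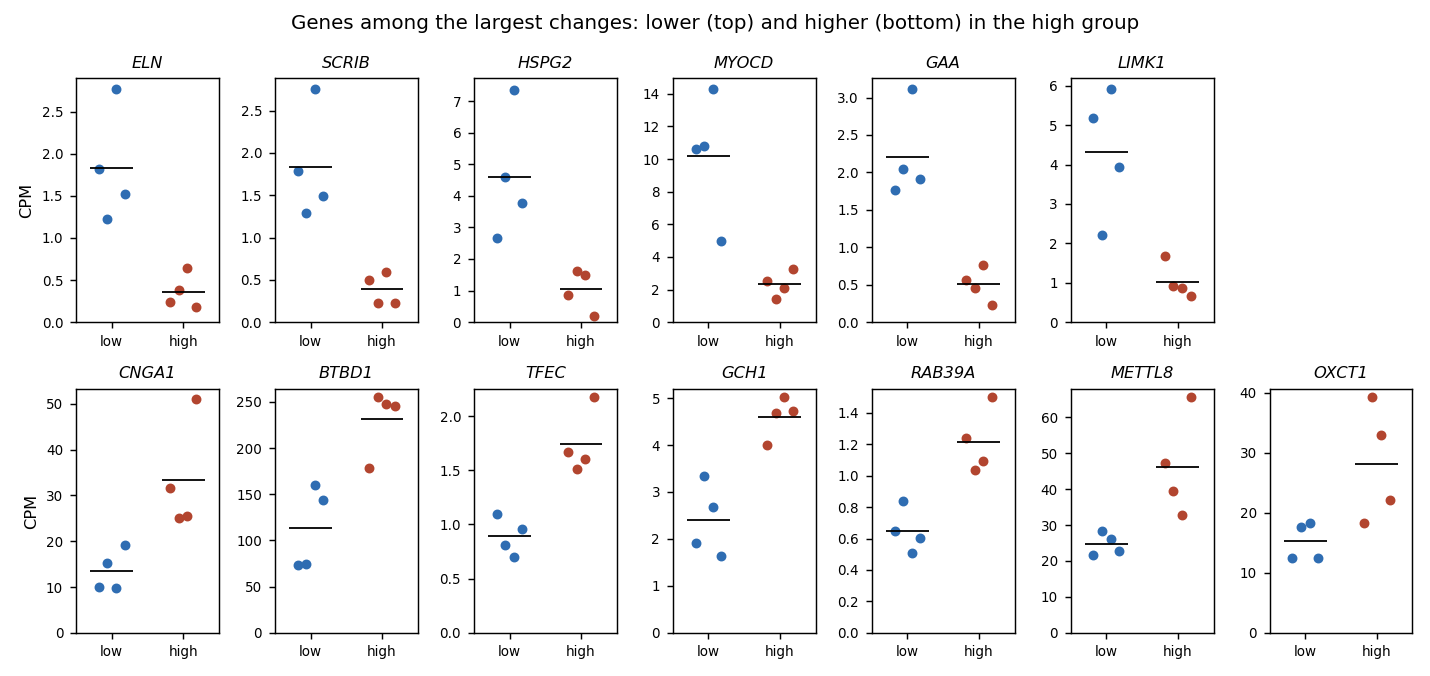
Levels (CPM) of genes among the lowest (top row) and the highest (bottom row) log2 fold changes of called genes with groups that did not overlap, in the low (blue) and high (red) group, with the group mean as a line and each axis starting at 0. Every high boar lies under every low boar in the top row and above every low boar in the bottom row, as the choice of genes requires.

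Among called genes that have a symbol, did not overlap between groups and are not discussed by the study, the 8 lowest log2 fold changes were larger than the 8 highest. SCRIB, a cell polarity scaffold (chromosome 4, 824925 to 852360), was measured at 1.78, 1.29, 2.75 and 1.49 CPM in the low boars and 0.501, 0.231, 0.592 and 0.225 CPM in the high boars (log2 fold change -2.24 ± 0.41 SE, adjusted p = 0.0208). SCRIB, like ELN and GAA among these lowest, reached 1 CPM in no high boar and entered the test through the low group. HSPG2, which encodes the basement membrane proteoglycan perlecan (chromosome 6, 79849691 to 79958283), was measured at 2.65, 4.61, 7.36 and 3.76 CPM in the low boars and 0.852, 1.63, 1.48 and 0.201 CPM in the high boars (log2 fold change -2.14 ± 0.53 SE, adjusted p = 0.0236). LIMK1, a kinase that controls actin turnover through cofilin (chromosome 3, 11252820 to 11279286), was measured at 5.17, 2.22, 5.92 and 3.93 CPM in the low boars and 1.67, 0.911, 0.877 and 0.662 CPM in the high boars (log2 fold change -2.07 ± 0.38 SE, adjusted p = 0.0208). It lies next to ELN (chromosome 3, 11214194 to 11245891), which was described above with the matrix genes. Positions are those of RefSeq on Sscrofa11.1.

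On the higher side, the leading genes came from signalling and metabolism. CNGA1, a subunit of a cyclic nucleotide-gated cation channel (chromosome 8, 37896460 to 37968935), was measured at 9.99, 15.2, 9.85 and 19.2 CPM in the low boars and 31.7, 25.1, 25.5 and 51.1 CPM in the high boars (log2 fold change 1.299 ± 0.28 SE, adjusted p = 0.0208). BTBD1 (chromosome 7, 51877446 to 51925886) was measured at 73.8, 74.5, 160.1 and 144 CPM in the low boars and 178, 255, 248 and 246 CPM in the high boars (log2 fold change 1.03 ± 0.25 SE, adjusted p = 0.0227), and L3 and L4 were well above L1 and L2 within the low group. GCH1, the first enzyme of tetrahydrobiopterin synthesis (chromosome 1, 184201232 to 184264060), was measured at 1.91, 3.34, 2.67 and 1.65 CPM in the low boars and 3.99, 4.68, 5.02 and 4.73 CPM in the high boars (log2 fold change 0.94 ± 0.27 SE, adjusted p = 0.0333). OXCT1, which uses ketone bodies in mitochondria (chromosome 16, 26514497 to 26659739), was measured at 12.4, 17.6, 18.3 and 12.5 CPM in the low boars and 18.4, 39.3, 33.0 and 22.2 CPM in the high boars (log2 fold change 0.89 ± 0.25 SE, adjusted p = 0.0322). METTL8, an RNA methyltransferase, TFEC, a transcription factor of the MITF family, and RAB39A, a small GTPase of vesicle transport, were also among the highest, with log2 fold changes of 0.90, 0.97 and 0.90.

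Among the most abundant called genes, changes were modest. ANKRD35 was measured at 3487, 3173, 3207 and 2951 CPM in the low boars and 2751, 1992, 2488 and 1653 CPM in the high boars (log2 fold change -0.53 ± 0.17 SE, adjusted p = 0.0456). MORF4L1, a chromatin protein of acetyltransferase complexes, was measured at 1665, 1499, 1154 and 1663 CPM in the low boars and 1849, 1961, 2096 and 2623 CPM in the high boars (log2 fold change 0.51 ± 0.16 SE, adjusted p = 0.0465), and IPO5, a nuclear import receptor, at 1312, 1508, 1045 and 1326 CPM in the low boars and 1869, 1590, 1638 and 2080 CPM in the high boars (log2 fold change 0.47 ± 0.15 SE, adjusted p = 0.0473). The groups did not overlap in any of the 3.

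The share of genes called followed the local density of genes. For the 10108 tested genes with RefSeq coordinates on an assembled chromosome, the number of protein-coding genes within 500 kb on either side was counted. In the sparsest quintile (0 to 6 neighbours), 2.66% of genes were lower and 7.75% higher, with a median log2 fold change of 0.25. In the densest quintile (28 to 83 neighbours), 39.6% were lower and 0.90% higher, with a median of -0.62. Called lower genes had a median of 26 neighbours, called higher genes 8, and all tested genes 12. The gradient was also seen within each quintile of mean level. Among the genes of the highest quintile of level, 21.4% of those in the densest quintile and 0.445% of those in the sparsest quintile were lower, and among the lowest quintile of level 40.8% and 5.95%. Of the nuclear chromosomes, chromosome 2 had the largest share of lower genes (30%, median of 27 neighbours) and chromosome 8 the smallest (4.36%, median of 8 neighbours). Short genes were more often lower too, with 26.0% in the shortest quintile by genomic span.

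**Figure D4:**
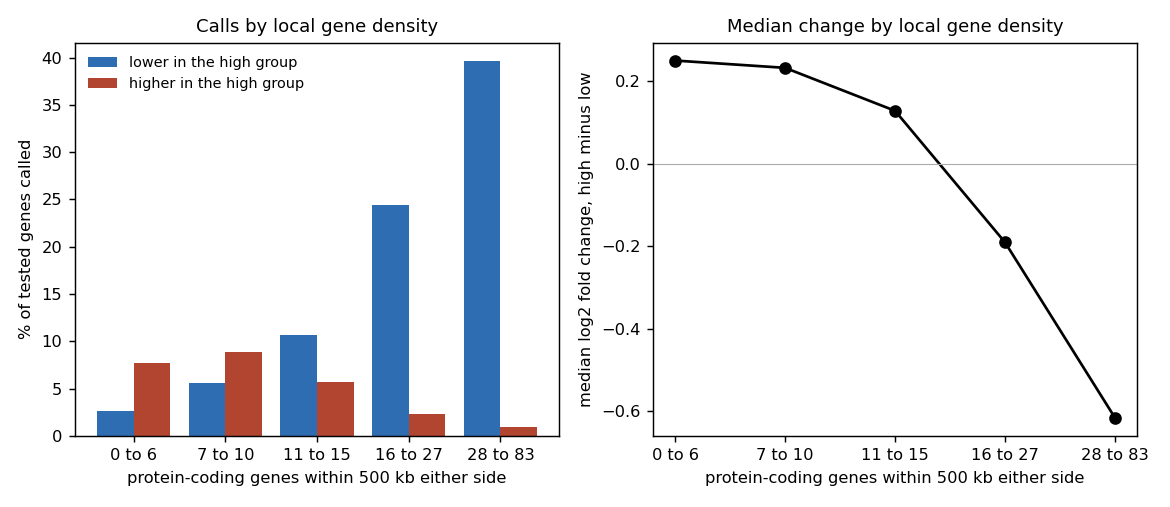
Share of tested genes called lower (blue) or higher (red) and median log2 fold change, in quintiles of genes by the number of protein-coding genes within 500 kb either side. The lower calls rise from 2.66% to 39.6% and the median falls from 0.25 to -0.62 from the sparsest to the densest quintile.

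The same gradient could be read in each boar as the median log2 level of genes in the densest quintile minus that in the sparsest quintile, each relative to the mean of the 8 boars. It was 0.39, 0.28, 0.65 and 0.32 in L1 to L4, and -0.08, -0.46, -0.12 and -1.01 in L5 to L8. The groups did not overlap, and L3 and L8, the boars at the ends, were also those with the most extreme levels of the called genes. Among the 5 boars of the storage contrast only, it ran from -0.61 in L13 to 0.40 in L12. Reads that aligned to several places, which HTSeq did not count to genes, took up 7.53% to 7.92% of its tally in the low and 5.83% to 7.20% in the high group, and the part of this in the gene differences was not tested.

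**Figure D5:**
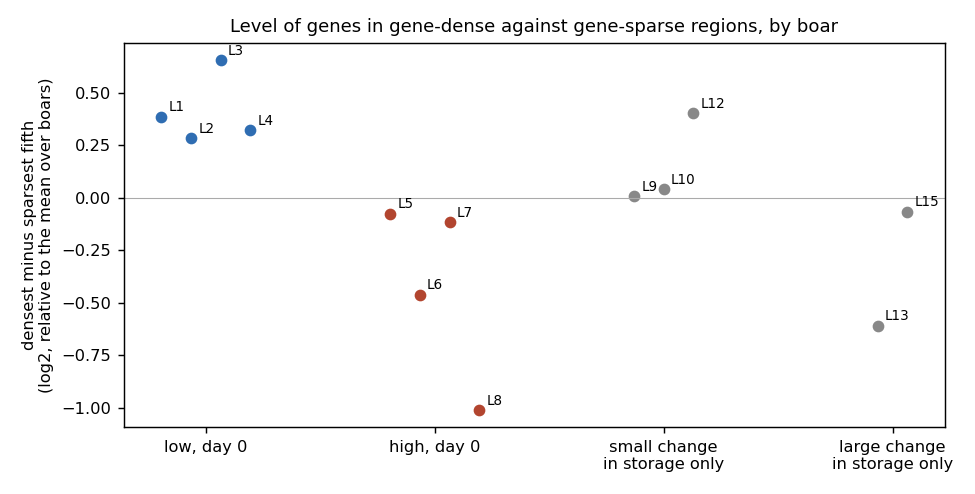
Median log2 level of genes in the densest quintile minus the sparsest quintile of local gene density in each of the 13 Landrace boars, relative to the mean of the 8 boars of the day 0 comparison. The low boars lie between 0.28 and 0.65, the high boars between -1.01 and -0.08, and the 5 boars of the storage contrast only (grey) between -0.61 and 0.40.

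In several gene lists the lower members lay in denser regions than the higher ones. Lower and higher members had medians of 41 and 7.5 neighbours among splicing factors, 28 and 9 in the proteasome, 39.5 and 10 among chaperones, and 35 and 15 among translation factors. As an alternative chosen after seeing the data, each library's trend of level on neighbour number was removed before the fit. With that, 1828 genes were called, 943 higher (9.33% of those tested) and 885 lower (8.76%), so 48.4% of called genes were lower. The median log2 fold change over all genes in that fit was 0.12. Of the 2175 genes called without this removal that could be tested in it, 1018 were called again. Of 97 called genes named here, 92 could be tested and 54 were called again, and ANKRD35 and PHKG2 changed sign, to log2 fold changes of 0.09 and 0.08. The called genes named here that were not called in it were, besides these, BBS1, CATSPER1, CATSPERG, CD4, COL1A1, DCST1, DDX4, DNAH1, DNAH2, EEF2, FDX1, GAPDHS, GSK3A, HBB, ID4, IFT140, INCENP, IPO5, IZUMO4, LAMB2, ODF2, PDE4A, PFKFB4, POLD2, PRM1, PSMD3, REC8, RPLP0, RPS15, RSPH6A, SEC63, SREBF2, TNP2, TPM2, U2AF2 and ZAN. Their folds did not all shrink alike. Over all alternatives the log2 fold change of ID4 stayed between 0.46 and 0.73 and that of FDX1 between 0.40 and 0.78. The value of EEF2 reached -0.11 and that of IZUMO4 -0.07.

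In the smooth muscle list 4 of the 5 lower members were still lower with the trend removed, and the median was -0.71. The matrix list again had 5 lower of 27, of which 3 were the same genes as before, and a median of -0.46. The endothelial list had 3 lower of 17, of which 2 were the same genes, and a median of -0.51. No member of these 3 lists was higher. Ribosomal proteins had 10 lower, all among the 18 lower before, and 6 higher, and glycolysis 4 of the 8 lower before and 0 higher. In germ cell lists, the lower members are counted over those with a position. The axoneme list had 9 of 19 still lower and 4 higher, and the acrosome list 5 of 11 still lower and 2 higher. Elongating spermatid genes had 4 of 7 still lower and 2 higher, with a median of 0.04, and round spermatid genes 4 of 5 still lower and 2 higher, with a median of 0.08. Both medians lay under the 0.12 of all genes in that fit. Sperm kinases and phosphatases had 1 of 5 still lower and 3 higher. None of the lower members was still lower in the outer dense fibre list (3 before, 2 higher), in sperm-egg fusion (3 before, 2 higher, median 0.27) or among sperm ion channels and transporters (4 before, 2 higher, median 0.16). Meiotic genes then had 7 higher and 0 lower of 24, splicing factors 13 higher and 2 lower of 54, and zinc finger genes 52 higher and 6 lower of 190. Over all genes in that fit, 9.33% were higher and 8.76% lower.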

How the data were processed

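RNA from testis of 1 boar per library was sequenced by the authors as single reads of a stranded messenger RNA kit, trimmed with Trimmomatic 0.36, aligned to Sscrofa 11.1 with STAR and counted on Ensembl genes with HTSeq, which skips reads that align to several places. The authors deposited the counts of HTSeq as they were, not normalized. The 5 tally lines that follow the genes in each file were left out of library sizes and tests.

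Groups were taken from the labels. The 8 libraries of contrast (i) were tested in R 4.3.3 with edgeR 4.0.16 (quasi-likelihood test, TMM, at least 1 CPM in at least 4 libraries, Benjamini-Hochberg adjustment over all genes, threshold 0.05), in place of the likelihood ratio test of the study. The boars are separate animals, and no pair of libraries of a group was a duplicate (chi-square per degree of freedom 49.6 to 306, Pearson's r of log counts 0.967 to 0.981). Standard errors are the log2 fold change divided by the root of the test statistic. Alternatives were the likelihood ratio test, DESeq2 1.42.0, other normalizations and filters, a robust fit, all 13 Landrace libraries, leaving out mitochondrially encoded genes, the boars shared with the storage contrast or each boar in turn, and, added after seeing the data, removal of the trend on gene density, alone or with gene span. The fit was also run on simulated data, and the outcome is not given here.

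Symbols came from an identifier table (14857 identifiers matched) and positions, matched by symbol, from RefSeq on Sscrofa11.1. Gene density is the number of RefSeq protein-coding genes with their midpoint within 500 kb either side. A list level in a boar is the median over members of log2 CPM (prior count 2) relative to the mean of the 8 boars. The comparison, its gene lists and the rules were chosen with earlier results of these data known. Genes named are, in each list, the 2 members with the smallest p and the member with the highest mean CPM, the 8 called genes that rose most and the 8 that fell most, of those whose groups did not overlap and that are not in the study's text, the 5 called genes with the highest mean CPM, and defining markers. Some genes that meet these rules are not reported here. Lists were described by counts and medians, without a test of the list. Duroc boars were not used here, and a correction for GC content and coding length was not run.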

Additional observations from a re-analysis of the deposited data

Results flagged for a closer look

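Samples were checked for standing apart from the other 3 boars of their group, by Dixon's test at its 95% critical value, in 264 groups of 4 values (levels of the named genes in each group, the levels of the cell type lists and the density measure of each boar). A rate of 1 in 20 would give 13.2 groups. Many of the genes were named for their values in these same boars, so this number is not a chance expectation for them. In 23 groups 1 boar stood apart, including those of SPO11 and SLC26A3 in the low boars, both named after their values were seen. L3 was that boar in 7, L5 in 5, L8 in 4, L1, L2 and L6 in 2 each, and L4 in 1. None of the 23 was a list level or a density value.

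L3 stood above the other low boars in CD163 (5.67 CPM, others 2.25 to 2.82), COL1A1 (5.48 CPM, others 1.84 to 2.25), EEF2 (922 CPM, others 884 to 889) and LAMB2 (11.4 CPM, others 3.98 to 5.21), and below them in DDX4 (1025 CPM, others 1320 to 1364), HSP90AA1 (2870 CPM, others 4002 to 4202) and PPP1CC (414 CPM, others 557 to 585). L8 stood above the other high boars in CFAP97 (1538 CPM, others 1182 to 1241), SEC63 (708 CPM, others 547 to 554), SLC26A8 (764 CPM, others 600.1 to 618) and SYCP3 (719.7 CPM, others 443 to 449). L5 stood above the other high boars in DRC3 (5.98 CPM, others 3.18 to 3.54), HBB (2.82 CPM, others 0.532 to 0.843) and TNP1 (8039 CPM, others 6030 to 6146), and below them in BTBD1 (178 CPM, others 246 to 255) and ZBTB16 (8.86 CPM, others 10.1 to 10.3). L6 stood above the other high boars in CD163 (9.44 CPM, others 0.886 to 2.29) and FDX1 (166 CPM, others 87.1 to 100.1). L1 stood above the other low boars in ID4 (13.7 CPM, others 9.88 to 10.3) and SLC26A3 (7.55 CPM, others 0.0168 to 0.115). L2 stood above the other low boars in PSMD10 (13.4 CPM, others 8.88 to 9.19) and SPO11 (22.4 CPM, others 5.28 to 6.06). L4 stood above the other low boars in COX1 (8475 CPM, others 6850 to 7038). Whether these values have a technical or biological source was not tested.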

How the results depend on the processing

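The number of called genes stayed within 1.5 times 2682 in all alternatives that kept the 8 boars (1828 to 3922) and without L2 and L7 together (1815). With 1 boar left out it ran from 1 to 3764. The share of called genes that were lower was 62.8% with DESeq2, 90.7% with upper quartile normalization, 92.2% with at least 1 CPM in all 8 libraries, 96.7% without L2 and L7, 48.4% with the gene density trend removed and 47.8% with the density and span trends removed, and ran from 62.9% to 100% with 1 boar left out. The cause of these shifts was not tested. Of 97 called genes named in the text, 96 were called with DESeq2, 86 with upper quartile normalization, 70 of 80 tested with at least 1 CPM in all 8 libraries, 73 with all 13 Landrace libraries, 71 of 91 without L2 and L7 and 54 of 92 with either trend removed, and at least 93 in the other 6 alternatives that kept the 8 boars and tested all 97 genes. Without L3 or L6 none of the 93 or 96 of them still tested was called (quasi-likelihood test of edgeR, with 3614 and 4708 genes at an unadjusted p under 0.05). Among called genes named in the text, direction reversed only for ANKRD35 (0.0920 and 0.10 on the log2 scale with the density trend and with both trends removed) and PHKG2 (0.0765 and 0.0840). Genes that were not called and changed sign were CYP17A1 (-0.0414 with upper quartile normalization, -0.046 with 1 CPM in all libraries, -0.13 without L2 and L7, and -0.43 to 0.39 with 1 boar left out), HSP90AA1 (-0.064, -0.063 and -0.047 in the same settings, and -0.13 to 0.11), LAMB1 (0.00507 without a filter, and -0.16 to 0.062), PRM2 (0.10 with both trends removed), ZBTB16 (0.014 with both trends removed, and -0.20 to 0.073), CD163 (-0.95 to 0.52), COX1 (-0.053 to 0.30) and UCHL1 (-0.34 to 0.00535), the ranges over boars left out. The list medians moved by less than 1 SD between boars in 897 of 986 comparisons. The densest minus sparsest quintile differed by -0.97 to -0.69 in log2 fold change in all alternatives but the trend removals, where it was -0.12 and -0.10. No paired analysis was possible because the labels give the high and low boars no shared animal, litter or day. With 4 boars a group, an exact permutation test cannot go below p = 0.0286, and counts at 1 CPM or less leave the lowest genes with few reads.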

Other observations

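Genes were also grouped by the stem of their symbol, with no list chosen by function, in groups of at least 15 tested genes. Besides collagens and semaphorins, the next lowest median belonged to myosins (MYO, 6 of 18 lower, 0 higher, median log2 fold change -0.58). The highest medians belonged to centrosomal proteins (CEP, 6 of 32 higher, 2 lower, 0.35), ARF-like GTPases (ARL, 3 of 17 higher, 1 lower, 0.33) and kelch-like proteins (KLHL, 3 of 24 higher, 1 lower, 0.31). Ubiquitin-conjugating enzymes (UBE) had the largest share of higher calls, 7 of 32 (21.9%), with 4 lower. These groups were picked for their medians or shares, and no test was made of them.

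L13, a boar of the storage contrast that is in neither day 0 group, lay outside the range of all 8 day 0 boars in several lists, as list levels relative to the mean of those boars. It was lower for elongating spermatids (-0.87, against -0.32 to 0.21 in the 8 boars), sperm-egg fusion (-0.81, against -0.42 to 0.29), outer dense fibre, fibrous sheath and midpiece (-0.72, against -0.27 to 0.22), chromatin remodelling in spermatids (-0.71, against -0.08 to 0.21), sperm kinases and phosphatases (-0.63, against -0.46 to 0.29) and the axoneme (-0.57, against -0.17 to 0.16). It was higher for Sertoli cells (0.72, against -0.16 to 0.15), macrophages (0.69, against -0.32 to 0.18) and interferon response and antigen presentation (1.03, against -0.83 to 0.47).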
